A study of Mus musculus with 27 samples.

Results

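The sarcomeric myosin heavy chains are the motor proteins of the thick filament of striated muscle, and 6 of their genes, Myh1, Myh2, Myh3, Myh4, Myh7 and Myh8, were followed in single muscle fibers. They were taken by the gene symbol that the array gives for each probe, with control spots left out, which gave 10 probes for 6 of the 35527 gene names on the array. Each array held the RNA of 1 myofiber from the tibialis anterior, a fast hindlimb muscle, of a male mouse labelled as 3 months old. WT is the wild type genotype (8 myofibers from 2 mice), and Smn1deltaSKM (12 myofibers from 3 mice) is HSA-Cre with Smn F7/F7, in which the human skeletal actin promoter drives Cre and thereby loss of Smn1 in skeletal muscle. Smn1deltaSKM+AFS (7 myofibers from 2 mice) is the same genotype after injection of amniotic fluid stem cells, selected for GFP and c-kit, into the tail vein. By the methods these mice were injected at 3 months and their myofibers taken a month later, whereas the labels give 3 months for them too, so that any difference in age cannot be told apart from the treatment. All mice of both Smn1deltaSKM groups thus have the same genotype. Whether a given myofiber had lost Smn1, and whether donor cells had joined it, was not recorded in the labels.

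Each myofiber of a mouse is a multinucleate cell, and its type is named after the heavy chain that it uses. Myh4 encodes the chain of the fastest fibers (type IIB), Myh1 that of type IIX, Myh2 that of type IIA and Myh7 the slow chain of type I and of cardiac ventricle, while Myh3 (embryonic) and Myh8 (perinatal) serve developing and regenerating fibers. The fast and developmental genes lie side by side on chromosome 11 and Myh7 lies on chromosome 14. Many fibers are hybrids that carry the mRNA of neighbouring types, in the order from I through IIA and IIX to IIB.

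Levels are given as log2 of the scanner signal above the 75th percentile of the same array, so that 0 is the level of that percentile and a step of 1 is a doubling. A value was used where the spot was found, lay well above the background and was not marked as uneven. Between 24774 and 40038 of 59305 spots had such a value on an array. The precision of the comparisons between groups is limited by how few mice there were. All 9 myofiber markers examined (among them Acta1, Ckm and Ttn) had values in each group. Markers of other cells had values too. The summed linear signal, relative to the 75th percentile, was 1328 to 3312 for the myofiber markers, 188 to 314 for 6 immune markers, 7.81 to 23.2 for 5 endothelial markers and 0.576 to 116 for 6 markers of fibroblasts and fibro-adipogenic progenitors, of which Pdgfra had no value in WT and Smn1deltaSKM+AFS. The part of these cells in the results was not tested. The WT arrays all lay on 1 slide that was scanned on a day of its own, so that for both comparisons with WT the slide or scan day and the group cannot be told apart. No level is compared between probes, since probes differ in how strongly they bind. Where myofibers or mice are said to lie outside the range of another group, the share of all probes that do so was not computed.

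Myh4 was bright in all 27 myofibers. Its probe (mm9, chr11:67073834-67073893, in the last part of the transcript) read 7.05 to 7.94 in WT with a median of 7.43, 6.67 to 7.40 in Smn1deltaSKM with a median of 6.99, and 6.01 to 7.49 in Smn1deltaSKM+AFS with a median of 7.18. The groups overlapped, although 7 of 12 Smn1deltaSKM and 3 of 7 Smn1deltaSKM+AFS myofibers were under the whole WT range. Before the 75th percentile was subtracted, the linear signal was 12930 to 24030 in WT, 15530 to 28100 in Smn1deltaSKM and 5794 to 21580 in Smn1deltaSKM+AFS. The count for Smn1deltaSKM thus depends on this subtraction. Over mice the level was 7.43 ± 0.080 in WT (SD, n = 2), 7.01 ± 0.030 in Smn1deltaSKM (SD, n = 3) and 6.96 ± 0.13 in Smn1deltaSKM+AFS (SD, n = 2). Myh4 passed the test in none of the 3 comparisons. The difference of Smn1deltaSKM from WT was -0.42 (limma, 95% confidence interval -0.99 to 0.15, adjusted p = 0.247).

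Myh1, the IIX chain, varied widely, even among the myofibers of 1 mouse. Its probe (mm9, chr11:67038002-67038061) read 1.64, 1.59, 3.69 and 2.71 in the 4 myofibers of WT mouse 1, and 0.70, 0.60, -0.66 and 3.35 in those of WT mouse 2. In Smn1deltaSKM it read 3.94, 5.22 and 0.55 in mouse 1, 3.00, 4.91, 6.58 and 2.05 in mouse 2, and 3.01, 6.77, 5.23 and 2.37 in mouse 3. One of the myofibers, Smn1deltaSKM myofiber 2 of mouse 1, was not well above background and has no value here. In Smn1deltaSKM+AFS the probe read 7.81, 3.65, 7.40 and 3.28 in mouse 1, and 6.83, -0.27 and 7.75 in mouse 2. The highest WT myofiber was exceeded by 6 of 11 Smn1deltaSKM and 4 of 7 Smn1deltaSKM+AFS myofibers, and the 4 highest of the latter also exceeded every Smn1deltaSKM myofiber. Both Smn1deltaSKM groups nevertheless held myofibers within the WT range.

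**Figure D1:**
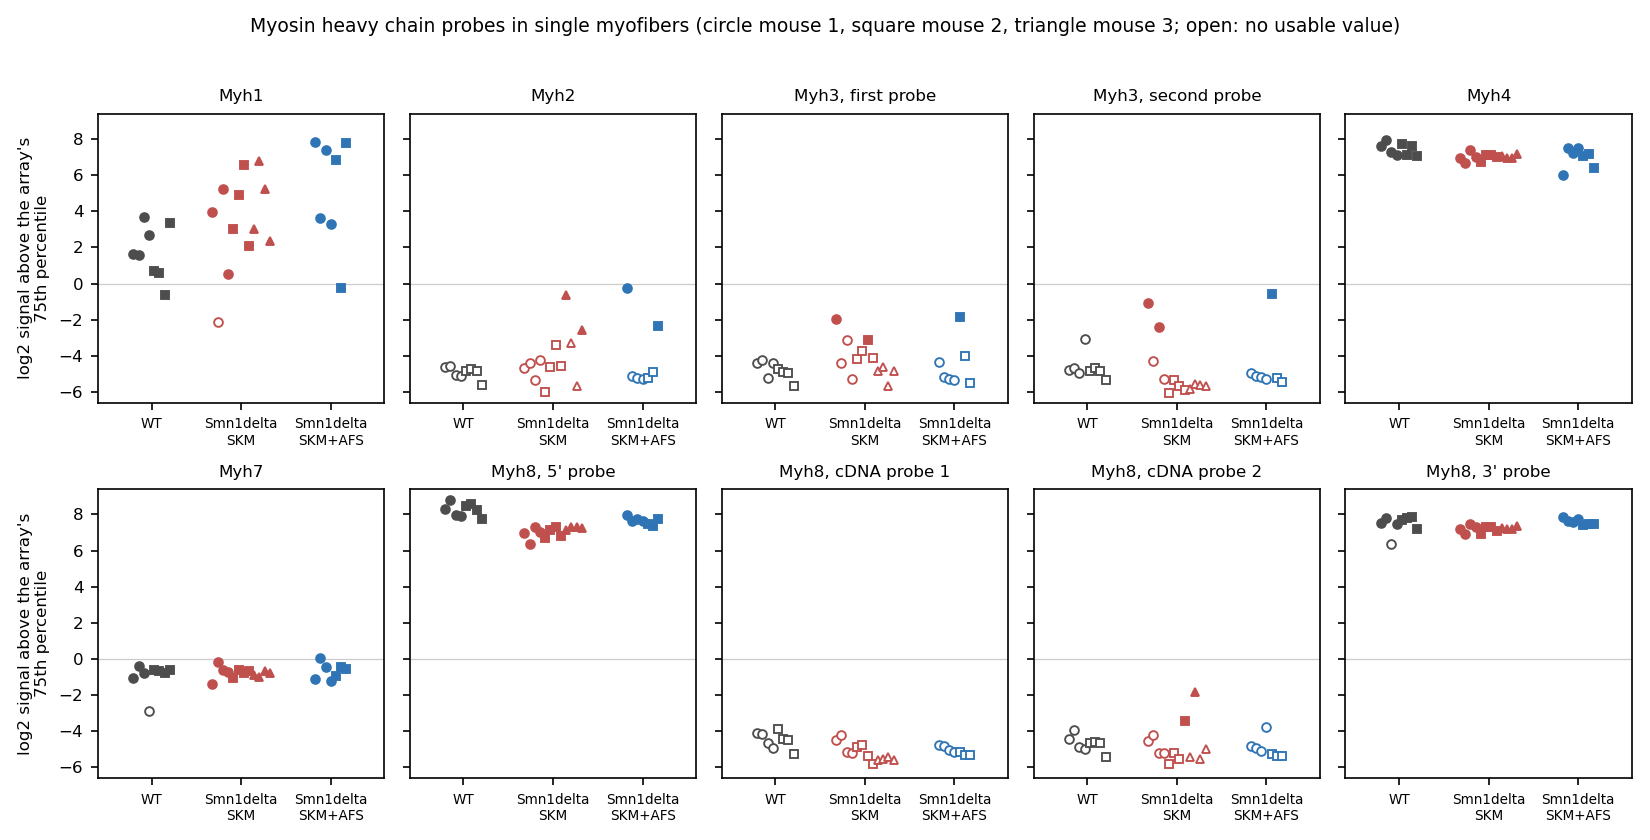
Each of the 27 myofibers is a symbol, with the log2 signal above the 75th percentile of its array on the vertical axis and the 3 groups on the horizontal axis, for the 10 probes. The symbol shape gives the mouse and open symbols have no usable value. Myh1 is spread from -0.66 to 7.81, Myh4 and the 5' and 3' Myh8 probes lie high in all groups, Myh7 lies close to 0, and Myh2 and Myh3 are open in all 8 WT myofibers.

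Between groups, Myh1 was higher in both Smn1deltaSKM groups than in WT. Its level over mice was 1.70 ± 1.00 in WT (SD, n = 2), 3.90 ± 0.59 in Smn1deltaSKM (SD, n = 3, without the myofiber that had no value) and 5.15 ± 0.54 in Smn1deltaSKM+AFS (SD, n = 2), and these mouse means did not overlap between the 3 groups. With the signal of that myofiber kept, Smn1deltaSKM mouse 1 was at 1.90, below WT mouse 1 at 2.41. How many of all probes had mouse means that did not overlap was not computed. In Smn1deltaSKM, Myh1 rose by 2.20 over WT (standard error 0.507, 95% confidence interval 1.04 to 3.36, limma, adjusted p = 0.0229), which is 4.60-fold. In Smn1deltaSKM+AFS it rose by 3.45 over the same WT mice (standard error 0.553, 95% confidence interval 2.18 to 4.71, limma, adjusted p = 0.0195), which is 10.9-fold. Both calls rest on few mice. Over all alternatives the difference of Smn1deltaSKM from WT lay between 1.31 and 2.91, and the call was lost when the signal of the dim myofiber was kept (1.76, adjusted p = 0.117), with the mouse (0.236) or the slide (0.567) as a random block, without WT mouse 1 (0.129) or 2 (0.153), without Smn1deltaSKM mouse 2 (0.0625) or 3 (0.0628), and without Smn1deltaSKM myofibers 1 to 3, scanned on another day than the other Smn1deltaSKM myofibers (1.31, adjusted p = 0.356). For Smn1deltaSKM+AFS against WT the difference lay between 2.75 and 4.15, and the call was lost with the mouse (adjusted p = 0.122) or the slide (0.285) as a random block, without WT mouse 1 (0.185) or 2 (0.109), without Smn1deltaSKM+AFS mouse 1 (0.152) or 2 (0.0608), and without Smn1deltaSKM myofibers 1 to 3 (0.0761).

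With AFS cells, Myh1 read 1.25 higher than in untreated Smn1deltaSKM, and this did not pass the test (95% confidence interval 0.09 to 2.40, limma, adjusted p = 0.9999). On the scan day that most of these arrays share the difference was 2.15 (standard error 1.04), and on the other shared day Smn1deltaSKM myofibers 1 and 3 (3.94 and 5.22) stood beside Smn1deltaSKM+AFS myofibers 2 and 3 (3.65 and 7.40). On the slide that holds a myofiber of each group, the Smn1deltaSKM myofiber read 0.55 and the Smn1deltaSKM+AFS myofiber 3.28.

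Few probes on the array varied as much as Myh1 among myofibers of the same mouse. Its SD within a mouse was 2.34 on the log2 scale, against a median of 0.447 and a 5th to 95th percentile range of 0.255 to 0.847 over the 22169 probes with values on at least 75% of arrays, and 1 probe, which has no gene symbol, had a higher SD. Csrp3 (2.32), Hba-a1 (2.26) and Fhl1 (2.14) came next. Within WT mouse 1 the 4 myofibers spanned 4.30-fold, within WT mouse 2 16.1-fold, within the 3 Smn1deltaSKM mice 21.1- to 25.4-fold, and within Smn1deltaSKM+AFS mice 1 and 2 23.1-fold and 260-fold. Myh4 had a within-mouse SD of 0.386, Myh7 of 0.354 and the 5' and 3' Myh8 probes of 0.298 and 0.186, all below the median of the array. These SDs include the amplification of each myofiber's RNA in 18 cycles, and are given with no test.

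**Figure D2:**
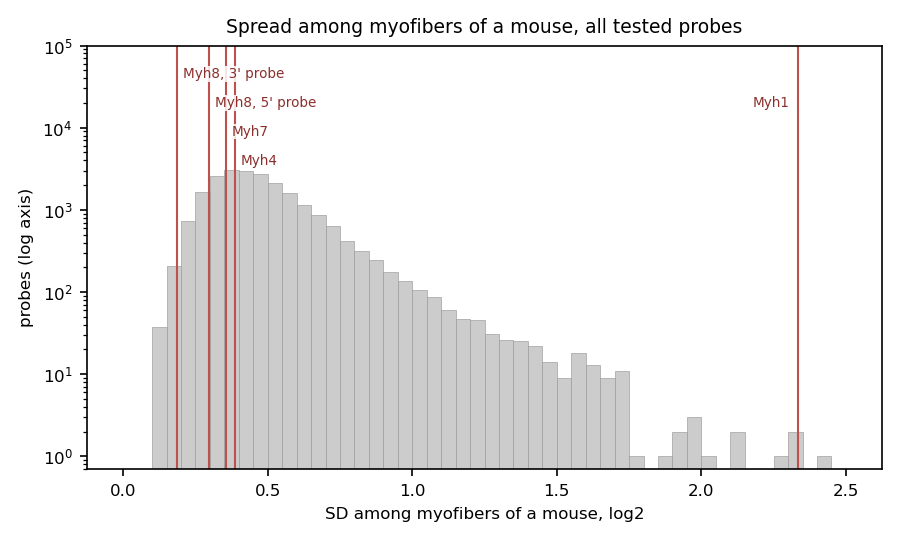
Histogram of the SD among myofibers of a mouse (log2, horizontal axis) over 22169 probes, with the number of probes on a log axis and lines at the 5 heavy chain probes. Myh1, at 2.34, sits at the far end, and the other lines lie at or below 0.386.

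Myh2, the IIA chain, was seldom detected. Its probe (mm9, chr11:67010960-67011019) was well above background in 0 of 8 WT, 3 of 12 Smn1deltaSKM and 2 of 7 Smn1deltaSKM+AFS myofibers. The levels were -0.64 and -2.59 in Smn1deltaSKM myofibers 9 and 12, both of mouse 3, and -0.22 and -2.33 in Smn1deltaSKM+AFS myofibers 1 and 7, from both mice. Smn1deltaSKM myofiber 10, also of mouse 3, read -3.30, with a spot that the software did not accept as found. The pair of Smn1deltaSKM+AFS myofibers with Myh2 were those with the highest Myh1 (7.81 and 7.75) and the lowest Myh4 (6.01 and 6.39) of all 27. The Smn1deltaSKM myofibers with Myh2 ranked 5, 15 and 18 from the highest in Myh1. Too few arrays had a value for a test of Myh2, and its signal in both Smn1deltaSKM groups was too dim to set a bound against WT.

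**Figure D3:**
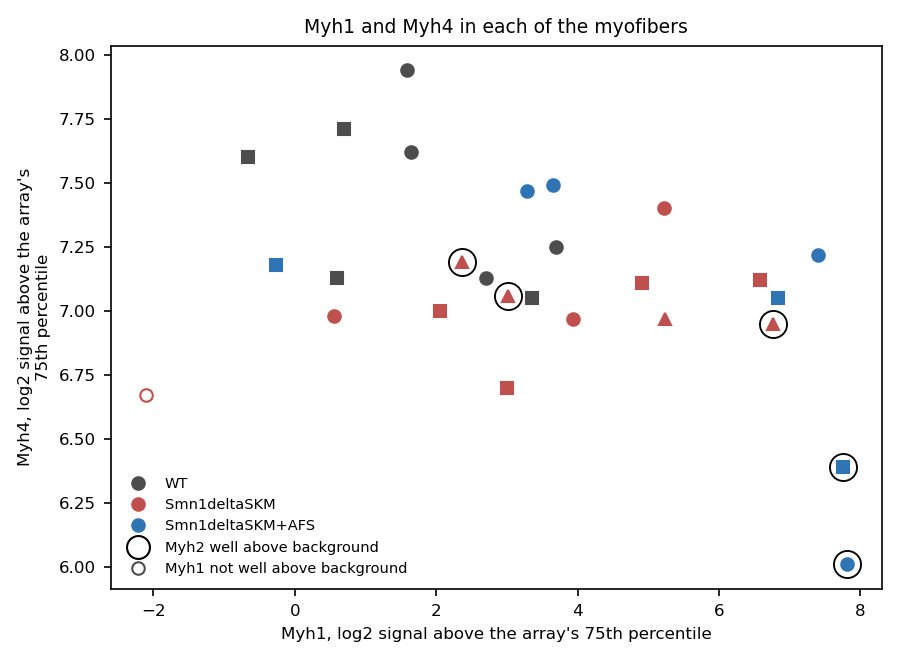
Each symbol is a myofiber, with Myh1 on the horizontal and Myh4 on the vertical axis, both as log2 signal above the 75th percentile of the array. Shapes give the mouse (circle 1, square 2, triangle 3), and rings mark the 5 myofibers with Myh2 well above background. The ringed Smn1deltaSKM+AFS myofibers lie at the lower right, with Myh1 at 7.81 and 7.75 and Myh4 at 6.01 and 6.39.

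Myofibers with more Myh1 than others of their mouse tended to have less Myh4. Pearson's r between deviations from the mean of the myofibers of the same mouse and scan day was -0.532 over 26 myofibers, and -0.508 without the 2 farthest in Myh1. It was not computed for each group, and the tendency was not seen in every mouse. In Smn1deltaSKM mouse 2 the myofiber with the highest Myh1 (6.58) also had the highest Myh4 (7.12). In Smn1deltaSKM mouse 3 the myofiber with the highest Myh1 (6.77) had the lowest Myh4 (6.95). The same measure gave 0.299 for Myh4 with the 5' Myh8 probe and 0.462 with the 3' Myh8 probe, 0.854 between those Myh8 probes, and -0.143 for Myh1 with Myh7. These correlations describe myofibers that share mice, slides and amplification, so they carry no p.

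Myh7, the slow chain, was low and even. Its probe (mm9, chr14:55589581-55589640, minus strand) read -1.05 to -0.38 in the 7 WT myofibers with a value, with a median of -0.68, and 1 WT myofiber was not well above background. In Smn1deltaSKM it read -1.38 to -0.18 with a median of -0.75, and in Smn1deltaSKM+AFS -1.20 to 0.08 with a median of -0.54. The groups overlapped throughout, with mouse means of -0.70 ± 0.053 in WT (SD, n = 2), -0.78 ± 0.050 in Smn1deltaSKM (SD, n = 3) and -0.65 ± 0.013 in Smn1deltaSKM+AFS (SD, n = 2). None of the 3 comparisons passed the test, and the 95% confidence interval of Smn1deltaSKM minus WT ran from -0.65 to 0.48, with a direction that turned under 2 other scalings. A probe for the predicted gene LOC674761, on the 60 bases next to the Myh7 probe, had a value on 0 arrays.

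Myh3, the embryonic chain, had few values in any group. Both of its probes (mm9, chr11:66915107-66915166 and chr11:66915724-66915783) had values in 0 of 8 WT, 2 of 12 Smn1deltaSKM and 1 of 7 Smn1deltaSKM+AFS myofibers. Smn1deltaSKM myofiber 1 read -1.94 and -1.06 on the first and second probe, and Smn1deltaSKM+AFS myofiber 5 read -1.83 and -0.60. Smn1deltaSKM myofiber 7 had a value on the first probe (-3.13) and myofiber 3 on the second (-2.42). The 2 probes thus picked out the same myofiber in Smn1deltaSKM+AFS and shared 1 of 3 in Smn1deltaSKM. Pax7, the defining gene of satellite cells, had a value on 3 of 27 arrays, 1 in each group. The summed linear signal of 5 satellite cell and myoblast markers, relative to the 75th percentile, was 5.06 to 10.6 in WT, 5.99 to 51.1 in Smn1deltaSKM and 6.91 to 52.9 in Smn1deltaSKM+AFS; its part in the Myh3 values was not tested, and a different number of such cells and a different amount of RNA per cell cannot be told apart.

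The 5' probe of Myh8, the perinatal chain, gave a lower signal in Smn1deltaSKM than in WT, and the call depended on the scaling. Of the 4 Myh8 probes, a pair were designed on the reference transcript, at bases 477 to 536 (the 5' probe, mm9, chr11:67093475-67093534) and at bases 5937 to 5996 (the 3' probe, chr11:67121925-67121984), and both were bright. The other pair were designed on cDNA clones (chr11:67095524-67095583 and chr11:67108324-67108383) and had values on 0 arrays and on 2 Smn1deltaSKM arrays. The probes read as follows on the array, with a Myh3 probe for comparison, because heavy chain genes are alike in their coding sequence. Capitals mark bases that the 3' Myh8 probe and the Myh3 probe share where they are set side by side without gaps, 29 of 48 bases or 60.4%, the highest share of any pair of the 10 probes.
Myh8 5' probe: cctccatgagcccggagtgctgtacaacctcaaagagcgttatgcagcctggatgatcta
Myh8 3' probe: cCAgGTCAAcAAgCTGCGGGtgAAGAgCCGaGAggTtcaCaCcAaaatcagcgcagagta
Myh3 first probe: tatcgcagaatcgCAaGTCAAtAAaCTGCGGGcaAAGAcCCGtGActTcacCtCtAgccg
The part of the Myh8 signal that came from other heavy chain transcripts was not tested.

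The 5' Myh8 probe read 7.74 to 8.79 in WT with a median of 8.28, 6.38 to 7.32 in Smn1deltaSKM with a median of 7.13, and 7.34 to 7.98 in Smn1deltaSKM+AFS with a median of 7.66. All 12 Smn1deltaSKM myofibers were under the whole WT range, all 7 Smn1deltaSKM+AFS myofibers lay above the highest Smn1deltaSKM myofiber, and 5 of those 7 were under the WT range. The share of all probes that separate the groups in this way was not computed, while 21.3% of probes were called in Smn1deltaSKM minus WT. In Smn1deltaSKM, Myh8 on this probe fell by 1.20 from WT (8.25 ± 0.0087 in WT, SD, n = 2 mice, and 7.05 ± 0.18 in Smn1deltaSKM, SD, n = 3 mice, limma, standard error 0.263, 95% confidence interval -1.80 to -0.60, adjusted p = 0.0206), a 2.30-fold lower signal. In Smn1deltaSKM+AFS the mean was 7.64 ± 0.18 (SD, n = 2 mice). It was 0.58 higher than in Smn1deltaSKM (95% confidence interval -0.02 to 1.19, limma, adjusted p = 0.9999) and stood at -0.61 relative to WT (95% confidence interval -1.27 to 0.04, limma, adjusted p = 0.195), neither past the test. Within the scan day that most of the Smn1deltaSKM and Smn1deltaSKM+AFS arrays share, the difference was 0.57.

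The size of the difference of Smn1deltaSKM from WT on the 5' Myh8 probe depended on the scaling. It was -0.89 and -0.97 with arrays scaled on probes measured on every array (adjusted p = 0.0638 and 0.0450), -0.77 after quantile normalization (0.0871), -0.55 after normexp background correction (0.110) and -0.77 in the authors' value table (0.0890). The call was also lost without WT mouse 1 (adjusted p = 0.172) or 2 (0.117) and without Smn1deltaSKM mouse 2 (0.0623).

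The 3' Myh8 probe gave a smaller difference. It read 7.21 to 7.86 in the 7 WT myofibers with a value (median 7.69), 6.93 to 7.47 in Smn1deltaSKM (median 7.22) and 7.42 to 7.84 in Smn1deltaSKM+AFS (median 7.56), with 6 of 12 Smn1deltaSKM myofibers under the WT range and 5 of 7 Smn1deltaSKM+AFS myofibers above the highest Smn1deltaSKM myofiber. The level over mice was 7.62 ± 0.028 in WT (SD, n = 2), 7.21 ± 0.050 in Smn1deltaSKM (SD, n = 3) and 7.57 ± 0.17 in Smn1deltaSKM+AFS (SD, n = 2). The differences of -0.41 (Smn1deltaSKM minus WT, limma, adjusted p = 0.259), 0.37 (Smn1deltaSKM+AFS minus Smn1deltaSKM) and -0.04 (Smn1deltaSKM+AFS minus WT, adjusted p = 0.935) did not pass the test.

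Within the arrays that had values on both probes, the log2 excess of the 5' probe over the 3' probe changed by -0.84 from WT to Smn1deltaSKM. This gave p = 0.1 in an exact permutation test over mice, which is as low as 3 against 2 mice can reach. Among 368 transcripts with 2 tested probes at least 1000 bases apart, the same change had a median of 0.243 (5th to 95th percentile -1.21 to 1.89), and 12.2% of transcripts lay at or below Myh8. With the signal of the uneven WT spot kept, the change was -0.94, from 0.79 in WT to -0.155 in Smn1deltaSKM, and the share 9.24%. By that measure 32.3% of transcripts changed as far as Myh8 in either direction.

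**Figure D4:**
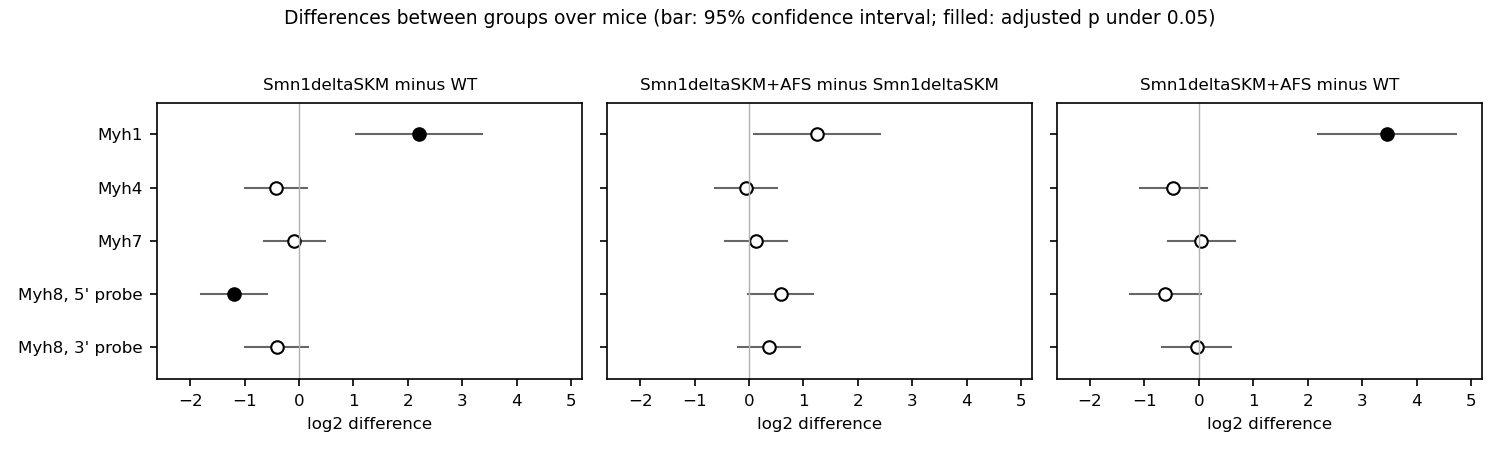
Fitted log2 differences over mice (horizontal axis) with 95% confidence intervals for the 5 probes that were tested, in the 3 comparisons. Filled symbols passed the test, which are Myh1 at 2.20 and the 5' Myh8 probe at -1.20 in Smn1deltaSKM minus WT, and Myh1 at 3.45 in Smn1deltaSKM+AFS minus WT.

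Of the 10 probes, 5 (of Myh1, Myh4, Myh7 and, with 2 probes, Myh8) had values on enough arrays to be tested. Limma called 2 of 5 in Smn1deltaSKM minus WT, 1 higher and 1 lower, where 21.3% of the 22882 probes tested were called, 1609 higher and 3267 lower. It called 0 of 5 in Smn1deltaSKM+AFS minus Smn1deltaSKM, where 0.0% of 22169 probes were called and 712 had an unadjusted p under 0.05. It called 1 of 5 in Smn1deltaSKM+AFS minus WT, where 7.33% of 22169 probes were called. The comparisons share mice, so their values stand side by side and are not independent. Scaling on the 75th percentile of probes measured on every array moved the median difference of all probes in Smn1deltaSKM minus WT from -0.16 to 0.14 and the share of calls that were lower from 67.0% to 36.0%; Myh1 then differed by 2.50 and the 5' Myh8 probe by -0.89.

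Ratios to Myh4 within an array do not depend on which percentile of the array is subtracted, although background correction can change them, and they were taken from all measured signals. The log2 ratio of the 5' Myh8 probe to Myh4 was 0.65 to 1.45 in WT myofibers, -0.30 to 0.36 in Smn1deltaSKM and 0.16 to 1.97 in Smn1deltaSKM+AFS, and no Smn1deltaSKM myofiber reached the WT range. Over mice it was 0.82 ± 0.088 in WT (SD, n = 2), 0.040 ± 0.15 in Smn1deltaSKM (SD, n = 3) and 0.67 ± 0.059 in Smn1deltaSKM+AFS (SD, n = 2), with differences of -0.78 and 0.63 for Smn1deltaSKM against WT and Smn1deltaSKM+AFS against Smn1deltaSKM. Both gave p = 0.1 in an exact two-sided permutation test over mice, the smallest possible, and adjusted p = 0.375 over the 15 ratio comparisons. Over myofibers the median of this ratio was 0.72 in WT, 0.044 in Smn1deltaSKM and 0.40 in Smn1deltaSKM+AFS. A ratio to Myh4 is also high where Myh4 is low, and Smn1deltaSKM+AFS myofibers 1 and 7, 1 from each mouse, had the lowest Myh4 (6.01 and 6.39). The ratio of Myh1 to Myh4 was 2.17 higher in Smn1deltaSKM than in WT and 1.74 higher in Smn1deltaSKM+AFS than in Smn1deltaSKM (exact permutation p = 0.3 for both). For Myh7 the ratio was 0.60 higher in Smn1deltaSKM than in WT (exact permutation p = 0.1) with the WT myofiber that was not well above background included, and 0.39 higher without it. It was 0.22 higher with normexp, 0.24 without WT mouse 1 and 0.97 without WT mouse 2. For Myh2 and Myh3 the ratio rests on signals that mostly were not above background, with differences from WT of 1.23 and 1.06 in Smn1deltaSKM and 1.35 and 0.87 in Smn1deltaSKM+AFS.

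The promoters of Myh1, Myh2 and Myh4 share a run of 20 bases, and the sequences are shown for how alike the adult fast chain genes are just before their starts. In 32851 RefSeq promoters (GRCm38.p6, 250 bases before the start of each gene, both strands searched), the run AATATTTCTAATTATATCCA was in 3, or 0.00913%, and its inner part TTCTAATTATATCC was in 4, those of the 3 genes and of Myh8, or 0.0122%. The promoters of Myh1, of wide spread among myofibers, and Myh4, of narrow spread, follow with the shared run in capitals.
Myh1 promoter, chr11:67199852-67200101, plus strand: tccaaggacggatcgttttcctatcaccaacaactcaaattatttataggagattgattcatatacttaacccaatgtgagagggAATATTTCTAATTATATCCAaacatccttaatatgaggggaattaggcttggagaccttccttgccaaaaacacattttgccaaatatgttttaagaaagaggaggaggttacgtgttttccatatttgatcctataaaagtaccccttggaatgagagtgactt
Myh4 promoter, chr11:67237562-67237811, plus strand: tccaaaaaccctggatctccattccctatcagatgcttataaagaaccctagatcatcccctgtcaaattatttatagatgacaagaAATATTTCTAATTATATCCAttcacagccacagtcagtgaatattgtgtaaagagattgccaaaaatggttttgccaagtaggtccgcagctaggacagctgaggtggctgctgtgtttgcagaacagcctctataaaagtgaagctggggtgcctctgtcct
Both runs were picked as the longest shared by the promoters of Myh1, Myh2 and Myh4, without or with that of Myh8. Their presence in those promoters was therefore set by the choice. A shared run is a description of these letters and not of a binding site.

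Near these genes the array also carries a probe for 2310065F04Rik, on chromosome 11 between Myh3 and Myh2 (mm9, chr11:66925963-66926022), which was looked at after its values were seen. It read 2.45 to 3.86 in WT with a median of 3.17, 0.05 to 3.15 in Smn1deltaSKM with a median of 1.67, and 1.51 to 3.30 in Smn1deltaSKM+AFS with a median of 2.62. Of the 12 Smn1deltaSKM myofibers, 8 were under the WT range. The difference of -1.47 did not pass the test (limma, standard error 0.525, adjusted p = 0.0782).

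The genes whose levels followed a heavy chain most closely among myofibers differed from chain to chain. Over 9169 probes with values on all arrays, the 5 named genes most like Myh1 were Mb (myoglobin, the oxygen store of oxidative fibers, r = 0.903 over 26 myofibers, 0.935 without the 2 farthest), Egln3 (an oxygen-sensing prolyl hydroxylase, 0.856), Ppara (a nuclear receptor for fatty acid oxidation, 0.854), Tbc1d1 (a regulator of glucose transporter traffic, 0.849) and Gm2170 (0.848). For Myh4 they were Camk2a (a calcium-dependent kinase, 0.831), Mast4 (0.817), Serinc2 (0.779), Clint1 (0.776) and Palld (an actin-binding protein, 0.760). The 5' Myh8 probe was most like Ube2v1 (0.918), LOC436420 (0.892), Pdk2 (a kinase that restrains pyruvate dehydrogenase, 0.887), Gm6498 (0.886) and Gm3534 (0.884), and Myh7 was most like Zfp167 (0.853), Gm7381 and LOC633654 (both 0.788), Zc3h15 (0.767) and Dgcr8 (0.765, and 0.47 without the 2 farthest). Of 12 fast fiber genes with values on all arrays, r was above 0 with Myh4 for 12 and with Myh1 for 3. With Myh4 it was also above 0 for 5 of 5 light chain genes and 6 of 7 genes of developing or regenerating fibers. It was so for 9 of 15 fiber type regulators, 4 of 8 thick filament partners, 2 of 3 other heavy chains and 1 of 3 slow fiber genes. The share over all probes is not given here. These r values are descriptions over myofibers that share slides and depth, and genes were ranked by them.

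The partners of the heavy chains were compared between Smn1deltaSKM and WT, where 21.3% of all probes were called. Of 8 genes of myosin light chains and their kinase, 5 were tested and 3 fell, which were Mylpf, the fast regulatory light chain (-1.99, limma, adjusted p = 0.0162), Mylk2, the light chain kinase of skeletal muscle (-1.86, 0.0470), and Myl1, the fast alkali light chain (-0.96, 0.0373). Under each of the 5 other scalings 1 light chain gene, Mylpf, was called, and in the authors' table the list's median of -0.11 was close to the -0.12 of all probes. Of 8 other sarcomeric or class II heavy chains, 5 were tested and 2 rose, which were Myh7b, a slow-tonic type chain (2.12, standard error 0.373, adjusted p = 0.0127), and the nonmuscle chain gene Myh14 (1.11, 0.0491), of which a further probe read -1.04. The Myh7b call was lost with the mouse or the slide as a random block. That of Myh14 was lost with the slide as a random block and without Smn1deltaSKM mouse 2 or 3. The brightest probe of Myh9, a nonmuscle chain gene, read -0.20, while a further Myh9 probe rose by 3.95 (limma, adjusted p = 0.00704). Of 14 thick filament and M band partners 13 were tested, and 1, Mybpc2, the fast myosin binding protein C, fell (-1.35, 0.0138), a smaller share than that of all probes. It was not called after quantile normalization or in the authors' table. The median difference was -0.96, 0.39 and -0.35 in these lists, against -0.16 over all probes.

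In the fast fiber list, 7 of 14 genes fell and 0 rose in Smn1deltaSKM against WT, with a median of -0.88, where 21.3% of all probes were called, mostly lower. Besides Mylpf, Mybpc2 and Myl1 they were Casq1, the calcium store protein of fast fibers (-1.30, limma, adjusted p = 0.0207), Actn3, the fast alpha-actinin (-1.14, 0.0328), Tpm1 (tropomyosin) and Pgam2 (a glycolytic mutase). Under the 5 other scalings 2 or 3 of the 14 were called, which is near the share of all probes, and the median was -0.64 to -0.46. In the slow fiber list 3 of 10 tested genes rose and 0 fell, with a median of 1.08, beside the same 21.3%. They were Ankrd2, a titin-associated protein of slow fibers (3.27, adjusted p = 0.00815), Fhl1, a LIM protein of the sarcomere (2.49, 0.0141), and Tnni1, slow troponin I (1.21, 0.0267), and 2 to 4 were called under the other scalings. The calls of Ankrd2, Fhl1 and Tnni1 were lost with the slide as a random block, and that of Fhl1 also with the mouse as a random block. Tpm3, slow tropomyosin, counted as not called by its brightest probe (-0.45), while a further probe rose by 2.23 (0.00716).

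Among 20 regulators of fiber type, 19 were tested and 4 fell in Smn1deltaSKM against WT, a share near the 21.3% of all probes. Among them were Hdac4, a deacetylase that restrains MEF2 (-1.93, limma, adjusted p = 0.00777), Mef2d, a MEF2 factor (-1.90, 0.00967), and Nfix, a factor of fetal and later myogenesis (-1.70, 0.0139), and 3 regulators fell under each of the 5 other scalings, while 2 and 1 rose under the percentile and the median of probes measured on every array. Of 15 genes of developing or regenerating fibers 11 were tested and 0 were called, with Actc1, cardiac actin, the largest difference at -3.11 (adjusted p = 0.134). No call on a list gene in this comparison held without either WT mouse, since limma then called 0 probes on the whole array.

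After AFS cells, 0 genes of the 7 lists were called against untreated Smn1deltaSKM. All 14 fast fiber genes had a difference above 0 (median 0.42, against 0.06 over all probes), and 11 of 14 had one under quantile normalization, under normexp and in the authors' table. Under these the median was 0.16 to 0.17, against 0.0004 to 0.01 over all probes. The share of all probes with a difference above 0 was not computed. The differences farthest from 0 in each list were 1.59 for Myl3, the slow light chain, 1.35 for Myh7b, 1.27 for Obsl1, an M band protein, 0.98 for Rcan1, a regulator of calcineurin, 0.76 for Pfkm and -1.41 for Myl4, the embryonic light chain.

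Against WT, 4 of 11 tested slow fiber genes rose in Smn1deltaSKM+AFS and 0 fell, where 7.33% of all probes were called. They were Ankrd2 (4.72, limma, adjusted p = 0.0127), Fhl1 (2.95, 0.0225), Mb (2.33, 0.0266) and Myl3 (1.89, 0.0430). The Myl3 call was lost under quantile normalization and in the authors' table, and those of Ankrd2, Fhl1 and Mb under 0 of the 5 other scalings. All 4 calls were lost with the slide as a random block, and those of Fhl1, Mb and Myl3 with the mouse as a random block. Myh7b rose by 3.47 (standard error 0.407, adjusted p = 0.0127), and the further probes of Myh9 and Tpm3 by 5.29 and 2.74 (both 0.0127), while their brightest probes read 0.0051 and 0.21. The Myh7b call was lost with the slide as a random block. Of the fast fiber genes 0 of 14 were called, with Mylpf at -1.65 (limma, adjusted p = 0.0573). Among the regulators Rcan1 rose by 3.45 (0.0458), and Mef2d (-1.52, 0.0356) and Hdac4 (-1.48, 0.0305) fell, 3 of 19 beside the 7.33% of all probes. The Rcan1 call was lost under 3 of the 5 other scalings (quantile normalization, normexp and the authors' table), that of Mef2d under all 5 and that of Hdac4 with normexp. Neither the thick filament list, with Mybph at -3.40 (0.0913), nor the developing fiber list, with Actc1 at -4.42 (0.101), held a call, and without either WT mouse limma called 0 probes in this comparison too.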

How the data were processed

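Single myofibers were lysed, their RNA was amplified in 18 cycles and each was hybridized in 1 colour (Cy3) to an Agilent SurePrint G3 mouse array. The deposited intensity of each spot was background-subtracted and detrended within the array by Agilent Feature Extraction 10.7.3.1, per the submitters' processing notes, without scaling from array to array. Linear intensities that the authors had normalized within and between arrays, by a method not given in the sources used here, served as an alternative. Flags deposited for each spot as 0 or 1 said which values were used.

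Here log2 of the intensity was taken and the 75th percentile of each array subtracted. Values not found, not well above background or uneven were left out, as in the study's methods apart from the flag for unevenness. A probe was tested where at least 75% of arrays had a value (of the WT and Smn1deltaSKM arrays for that comparison, of all arrays for the others). Tests were made with limma 3.58.1 in R 4.3.3 on means per mouse, in 1 model over the 7 mice, since genotype and treatment belong to the mouse. A probe was called at a Benjamini-Hochberg adjusted p under 0.05 over all probes tested. The study's own test treats myofibers as independent and was not the main test. Ratios were tested by exact permutation over mice. A list gene was represented by its brightest tested probe, and the text names every heavy chain probe, up to 4 called genes of the largest difference in a list and comparison (the gene of the largest difference where none was called), and the 5 genes most like a member. Beyond this rule, Tpm1, Tpm3, Pgam2, Myh9, Csrp3, Hba-a1, LOC674761 and 2310065F04Rik were named after their values were seen, and a called gene of the regulator list is not reported here. The members and lists were chosen with earlier results of these data known. The fit was tested on simulated data. The alternatives were other scalings, normexp (offset 50), the authors' table, other filters, blocks for mouse, slide and scan day, and each mouse left out. Sequences came from the array files (mm9) and RefSeq promoters (GRCm38.p6).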

Additional observations from a re-analysis of the deposited data

How the results depend on the processing

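The number of heavy chain probes called in Smn1deltaSKM minus WT was 2, and it was 1 (Myh1) with the 75th percentile of probes measured on every array, quantile normalization, normexp or the authors' value table. It was 1 (Myh8) where measured signals were kept whatever their flags (with or without a filter on the share of arrays), with values required on every array (Myh1 then was not tested), with the mouse or the slide as a random block, and without Smn1deltaSKM myofibers 1 to 3; it was 4 with myofibers as replicates. In Smn1deltaSKM+AFS minus WT it was 1, and 0 with values required on every array, with the mouse or the slide as a random block and without Smn1deltaSKM myofibers 1 to 3, and 2 with myofibers as replicates. Leaving out each mouse in turn gave 0 to 2, 0 to 0 and 0 to 1 calls in Smn1deltaSKM minus WT, Smn1deltaSKM+AFS minus Smn1deltaSKM and Smn1deltaSKM+AFS minus WT. Smn1deltaSKM+AFS minus Smn1deltaSKM gave 0 in all alternatives.

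With the mouse number as a replicate block the counts stayed at 2, 0 and 1. Across probes, r between the deviations of same-numbered mice ran from -0.037 to 0.288, and that of differently numbered mice from -0.298 to 0.298. In a group of 2 mice the deviations mirror each other, so these r values cannot decide whether the numbers are pairs. The labels do not call them pairs, and they are not read as such.

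Differences that turned direction were not called. Myh7 in Smn1deltaSKM minus WT was 0.23 and 0.15 under the 75th percentile and median of probes measured on every array and 0.19 with measured signals kept (with or without the filter), and 3' Myh8 was 0.17 in the authors' table. In Smn1deltaSKM+AFS minus Smn1deltaSKM, Myh4 was 0.13 with the slide block and ran from -0.14 to 0.0394 over mice left out, and Myh7 was -0.0155 under the 75th percentile of probes measured on every array and -0.12 within the scan day. In Smn1deltaSKM+AFS minus WT, Myh7 was -0.0127 (quantile), -0.0432 (normexp) and -0.0338 (authors' table), and 3' Myh8 was 0.11 and 0.0899 under those 2 scalings, 0.0267 under quantile normalization, 0.027 under normexp, 0.22 in the authors' table, 0.11 with measured signals kept (with or without the filter) and -0.17 to 0.0793 over mice left out. Ratios to Myh4 in Smn1deltaSKM+AFS minus Smn1deltaSKM ran from -0.15 to 0.64 for Myh2 and from -0.91 to 0.51 for Myh3 over mice left out, and for Myh3 were 0.70 with both probes above background and 0.41 with normexp. The Myh8 ratio in Smn1deltaSKM+AFS minus WT was 0.17 with normexp. The cause of these turns was not tested.

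Among the differences of the heavy chain probes, 297 alternatives kept direction and side of the threshold, 23 lost the call, 3 gained it and 20 turned. No called list gene turned direction in any alternative. Signal over background limits what can be said of Myh2 and Myh3. Leaving out saturated spots was not run because there were 0, and the mean of several Myh4 probes because there was 1. Keeping measured signals without a filter, the lists under other scalings, and the Myh8 probes set against each other were chosen after seeing the data.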
